A study of Homo sapiens with 27 samples.

Results

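The genes described here encode the proteins of the cytosolic and the mitochondrial ribosome. They were taken by symbol: RPL and RPS followed by a number (with a short suffix for paralogs such as RPL22L1) for the cytosolic ribosome, and MRPL and MRPS followed by a number for the mitochondrial one, without the RPS6 kinases and without pseudogenes. The rule found 128 of the 17687 genes measured. Of these, 54 were cytosolic (32 of the large and 22 of the small subunit) and 74 mitochondrial (47 of the large and 27 of the small subunit). RefSeq lists 50 large- and 33 small-subunit protein-coding genes under the cytosolic symbols, and 49 and 28 under the mitochondrial ones. The cytosolic set is thus a part of its ribosome, while the mitochondrial set is nearly complete by this rule. The 2 Y-linked members were counted only, which left 126 members with values, 52 cytosolic and 74 mitochondrial. Expression was measured on 27 arrays, 3 for each of 9 groups, from the human colorectal cancer lines LIM1215, SW48 and Caco2, each grown from a single clone. In each line, parental cells were compared with resistant cells and with withdrawal cells. Resistant cells were those left after 20 cycles with cetuximab at 1 µg/ml and NK-CD16 effectors, which are natural killer cells that carry the Fc receptor CD16. Cetuximab is an antibody against the epidermal growth factor receptor. Withdrawal cells were resistant cells kept for 20 further cycles without the treatment.

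Ribosomes translate messenger RNA. The cytosolic ribosome is built in the nucleolus from ribosomal RNA and a set of ribosomal proteins. Its protein genes are among the most highly transcribed genes of a growing cell. Many of their transcripts start with a run of pyrimidines that ties their translation to nutrient and mTOR signalling. The mitochondrial ribosome is made of other proteins, also encoded in the nucleus and imported, and translates the few respiratory chain subunits that mitochondrial DNA encodes. Both make use of proteins shared with bacterial ribosomes as well as proteins of their own. The series compares cells that survived antibody-dependent killing with cells before the treatment and after its withdrawal, and the comparison of interest here is how the ribosomal sets of a line differed between its 3 states.

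The deposited values were read as log2. The array medians lay between 7.90 and 8.05 in LIM1215, 6.43 and 6.54 in SW48 and 6.99 and 7.08 in Caco2, so levels were compared within a line only, and levels of different genes were not set against each other. An array's background was the 95th percentile of its negative control probe sets, and a member was called near background in a group whose mean lay below it. Cytosolic members were above background in all 9 groups for 49 of 52; the exceptions, RPL3L, RPL10L and RPL39L, were near background in all 9. Of the 74 mitochondrial members, 69 were above background in all 9 groups; MRPL54 and MRPS31 were near background in some groups of SW48 and Caco2, and MRPL1, MRPL28 and MRPL58 in some of Caco2. Cytosolic ribosomal proteins have many near-identical pseudogene copies, and probe sequences were not used here, so whether a probe set also takes up RNA of a copy or paralog was not tested. One array, parental replicate 3 of LIM1215, correlated with its 2 replicates at 0.987, against 0.995 to 0.997 for all other pairs of replicates. Of the 11 measured markers of colorectal epithelium, 11 were above background in LIM1215, 9 in Caco2 and 6 or 7 in SW48, where CDX1, VIL1, CDH17 and LGALS4 were near background. Most markers of natural killer cells were higher in resistant than in parental cells. Of 28, 24 rose in LIM1215, 24 in Caco2 and 17 in SW48, where 1 fell (limma, adjusted p under 0.05 over all 17687 genes). Of all genes 5.42%, 12.9% and 10.9% rose in LIM1215, Caco2 and SW48. On the resistant arrays 16, 12 and 4 of the 28 were above background in LIM1215, Caco2 and SW48, against 2, 1 and 1 on the parental arrays and 2, 1 and 1 on the withdrawal arrays. The log2 of their summed signal was 8.69 to 8.91 on the parental, 10.2 to 10.8 on the resistant and 9.74 to 9.90 on the withdrawal arrays of SW48, with 10.36 to 10.58, 13.43 to 13.77 and 11.08 to 11.13 in Caco2, and 10.07 to 11.09, 14.03 to 14.33 and 10.998 to 11.07 in LIM1215. NCAM1, GZMA, IL2RG and CCL5 were above background on the resistant arrays of all 3 lines, IL2RG also on the parental arrays of LIM1215 and Caco2. NKG7, PRF1, GZMB, GZMK, CCL3, CST7 and CTSW were above it on those of LIM1215 and Caco2 but not of SW48. So was PTPRC, which in SW48 was above background on the parental and withdrawal arrays and near it on the resistant ones. On the resistant arrays FCGR3A, GNLY, TYROBP and EOMES were above background in LIM1215 only, EOMES also on the parental and withdrawal arrays of that line. KLRD1, KLRC1, KLRC2, KLRB1, KLRF1, CD2, CD7, CD247, IL2RB, NCR3, GZMH and TBX21 were near background on the resistant arrays of all 3 lines. The part of these markers in the results was not tested. In RNA from a whole culture, fewer cells of a type and less RNA per cell cannot be told apart.

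Many cytosolic ribosomal protein genes start within a pyrimidine run, and the promoters are shown first. RefSeq (GRCh38.p14) promoters, 250 bases before to 50 bases after the gene start, were held for 46 cytosolic and 66 mitochondrial members. A pyrimidine start, meaning a C within 10 bases of the gene start followed by at least 4 pyrimidines on the gene's strand, was found in 38 of the 46 cytosolic promoters (82.6%), in 19 of the 66 mitochondrial ones (28.8%) and in 33.8% of the 14010 promoters of protein-coding genes on the array. The ETS motif CCGGAAG, on either strand, was in 34.8% of cytosolic, 42.4% of mitochondrial and 14.4% of the protein-coding promoters. The YY1 motif AAGATGG was in 13% of cytosolic and 33.3% of mitochondrial promoters, against 6.44%, and the NRF1 motif GCATGCG in 6.52% and 10.6%, against 5.15%. The ETS motif ends and the YY1 motif begins with AAG, so their matches can share these letters, and a match describes the sequence only. The start in that table is the outer end of the annotated gene for 43 of the 46 cytosolic and 58 of the 66 mitochondrial members; of those shown, MRPL24 is the exception, with its start 1628 bases inside the gene's end. The stretches below run from 60 bases before the gene start to 20 bases from it, with the start as the RefSeq promoter table places it, 5′ to 3′ on the gene's strand, for members whose changes stand out below. Capitals mark the pyrimidine run at the start or, in RPS27L, the ETS motif; MRPL24, MRPL49 and MRPL50 have neither in this stretch.
RPL36A: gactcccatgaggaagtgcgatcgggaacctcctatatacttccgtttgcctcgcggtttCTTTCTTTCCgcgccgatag
RPL36AL: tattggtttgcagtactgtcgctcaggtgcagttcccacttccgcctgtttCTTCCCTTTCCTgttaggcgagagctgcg
RPS27: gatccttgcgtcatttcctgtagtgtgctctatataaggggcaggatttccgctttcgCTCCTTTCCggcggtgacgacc
RPS27L: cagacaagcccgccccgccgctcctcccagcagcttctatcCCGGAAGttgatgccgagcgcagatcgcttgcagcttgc
RPS23: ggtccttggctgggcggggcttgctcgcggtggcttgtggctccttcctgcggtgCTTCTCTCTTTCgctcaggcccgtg
RPL22L1: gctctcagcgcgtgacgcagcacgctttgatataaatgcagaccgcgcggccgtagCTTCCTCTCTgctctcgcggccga
MRPS9: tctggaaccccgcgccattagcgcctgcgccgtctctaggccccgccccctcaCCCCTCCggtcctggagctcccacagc
MRPL24: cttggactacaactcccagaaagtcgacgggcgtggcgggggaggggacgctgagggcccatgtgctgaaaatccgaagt
MRPL49: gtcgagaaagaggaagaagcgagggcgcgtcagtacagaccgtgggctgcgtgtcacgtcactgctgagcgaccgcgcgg
MRPL50: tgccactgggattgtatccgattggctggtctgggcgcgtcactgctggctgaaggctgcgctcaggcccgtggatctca
The cytosolic stretches lie at chrX:101390951-101391030 (+ strand), chr14:49620607-49620686 (- strand), chr1:153990702-153990781 (+ strand), chr15:63157458-63157537 (- strand), chr5:82278335-82278414 (- strand) and chr3:170870176-170870255 (- strand), and the mitochondrial ones at chr2:105038009-105038088 (+ strand), chr1:156741069-156741148 (- strand), chr11:65122123-65122202 (+ strand) and chr9:101398599-101398678 (- strand). Within each paralog pair shown, RPS27 has a pyrimidine run of 9 bases and RPS27L has none, while RPL36A and RPL36AL both have one, of 10 and 12 bases.

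Many cytosolic ribosomal protein genes were higher in resistant than in parental SW48 cells. Of the 52, 21 rose and none fell (limma, adjusted p under 0.05 over all 17687 genes), 12 of the large and 9 of the small subunit, while 22.7% of all genes were called in this comparison, 10.9% higher and 11.8% lower. The median change of the cytosolic members was 0.27 on the log2 scale, 49 of the 52 lay above 0, and the median over all genes was -0.00206. In 36 members all 3 resistant arrays lay above all 3 parental ones and in none below; such a separation in either direction was found in 35.5% of all genes. The count rested on some arrays and on the scaling: it was 7 without parental replicate 3, 13 without resistant replicate 2, 12 after quantile normalization and 11 when SW48 was fitted alone, always in the upward direction.

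The members that rose most among those whose 3 resistant arrays all lay beyond the 3 parental ones were a paralog pair of the small subunit and a large-subunit paralog. RPL36AL, an intronless copy of RPL36A whose protein sits near the exit site of the large subunit, measured 13.41, 13.44 and 13.47 on the parental, 14.06, 14.23 and 13.97 on the resistant and 13.69, 13.64 and 13.40 on the withdrawal arrays. All 3 resistant arrays were above all others, and the change from parental to resistant cells was 0.65 ± 0.10 (SE), adjusted p = 5.95e-05. RPS27, a zinc-finger protein of the small subunit, measured 15.98, 15.90 and 15.76 on the parental, 16.54, 16.45 and 16.46 on the resistant and 16.11, 16.10 and 15.93 on the withdrawal arrays. It was again highest on the 3 resistant arrays, 1.52-fold higher than in parental cells (log2 0.60 ± 0.10 (SE), adjusted p = 7.42e-05). Its paralog RPS27L measured 10.79, 10.31 and 10.23 on the parental, 10.94, 10.90 and 11.34 on the resistant and 10.64, 10.33 and 10.54 on the withdrawal arrays, with every resistant array above every parental one although parental replicate 1 came close (change 0.62 ± 0.19 (SE), adjusted p = 0.0172). RPS15, at the head of the small subunit, and RPL11, a large-subunit protein that also binds MDM2, rose by 0.58 and 0.56 (adjusted p = 0.000187 and 0.000116). The other called members were RPS28, RPL36A, RPL27, RPL21, RPS26, RPL9, RPL24, RPS12, RPL31, RPL35, RPS21, RPL34, RPL18, RPL38, RPS14 and RPS25, with changes from 0.26 to 0.50. The identifier of the RPL21 probe set names another chromosome than that of the gene, chromosome 13. Whether this probe set measures RPL21 or a copy was not tested. The lowest value of the set was -0.10 for RPL7L1, which did not pass the test.

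After withdrawal some of the cytosolic members of SW48 were lower than in resistant cells. Of the 52, 11 fell and none rose, with a median change of -0.18. These are 21.2% of the set, just below the 22.2% of all genes called (11.1% higher, 11.1% lower). By direction, 21.2% of the set and 11.1% of all genes fell. All 3 withdrawal arrays lay below all 3 resistant ones in 33 members and above them in none (35.5% of all genes separated in either direction). The count of calls was 7 without resistant replicate 3, without withdrawal replicate 2, without withdrawal replicate 3 or when the line was fitted alone. This comparison shares the resistant arrays with the one before it. RPL26L1, a paralog of RPL26, a protein beside the exit of the peptide tunnel, measured 10.07, 9.52 and 9.11 on the parental, 9.92, 10.02 and 10.40 on the resistant and 9.26, 9.32 and 8.83 on the withdrawal arrays. Its fall from resistant to withdrawal cells was the largest, -0.98 ± 0.25 (SE), adjusted p = 0.00512, while its parental arrays spread over both. RPS15 measured 15.65, 15.76 and 15.44 on the parental, 16.16, 16.24 and 16.20 on the resistant and 15.78, 15.61 and 15.44 on the withdrawal arrays, where the resistant arrays stood alone above parental and withdrawal arrays (change -0.59 ± 0.10 (SE), adjusted p = 0.000157). RPS27L fell by 0.56 and RPL36AL by 0.51 (adjusted p = 0.0333 and 0.00084). The other members that fell were RPS28, RPS27, RPL11, RPL34, RPS26, RPS14 and RPS21. Between withdrawal and parental SW48 cells none of the 52 was called by limma, against 4.08% of all genes; at an unadjusted p under 0.05, 3 were higher and none was lower, and the median change was 0.06.

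In Caco2 most of the cytosolic members that changed fell. Between parental and resistant cells 23 of 52 fell and 2 rose, 15 and 1 in the large and 8 and 1 in the small subunit, where 27.4% of all genes were called (12.9% higher, 14.5% lower). The median change was -0.26, against -0.03 over all genes, and 8 of the 52 lay above 0. The 3 resistant arrays were all below the 3 parental ones in 23 members and all above in 2, where 39.9% of all genes separated in either direction. The number called was 15 without resistant replicate 1 and 14 with the line fitted alone.

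RPL36A changed most of the cytosolic set. It measured 13.12, 13.48 and 13.22 on the parental, 11.99, 11.53 and 12.13 on the resistant and 13.50, 13.44 and 13.63 on the withdrawal arrays, so that the highest resistant array (12.13) lay below the lowest of the other 6 (13.12), a level 2.62-fold lower than in parental cells (log2 -1.39 ± 0.15 (SE), adjusted p = 2.11e-07). RPS23, a protein of the decoding centre, measured 16.93, 16.88 and 16.89 on the parental, 16.06, 16.24 and 16.25 on the resistant and 16.78, 16.78 and 16.81 on the withdrawal arrays. The 3 resistant arrays were again the lowest, and the change was -0.72 ± 0.09 (SE), adjusted p = 2.04e-06. RPL6, a large-subunit protein, measured 14.15, 14.31 and 14.10 on the parental, 13.22, 13.32 and 13.88 on the resistant and 14.07, 14.07 and 14.07 on the withdrawal arrays. Its resistant replicate 3 lay close to the other groups, as it did for the set as a whole (change -0.71 ± 0.13 (SE), adjusted p = 0.000154). RPS6, the small-subunit protein phosphorylated by S6 kinases, and RPL26 fell by 0.63 and 0.60 (adjusted p = 4.03e-05 and 0.000545). The other members that fell, by 0.28 to 0.53, were RPL22L1, RPS14, RPS12, RPL7, RPL10A, RPL18, RPL34, RPL9, RPL35A, RPS25, RPL19, RPL37, RPL29, RPS7, RPS18, RPL24, RPS10 and RPL14. The 2 that rose were the paralogs RPS27L and RPL36AL. RPS27L measured 9.87, 9.64 and 9.81 on the parental, 10.49, 10.56 and 11.20 on the resistant and 10.15, 10.04 and 9.80 on the withdrawal arrays, with all resistant arrays on top and replicate 3 highest (change 0.98 ± 0.19 (SE), adjusted p = 0.00026), and RPL36AL rose by 0.33 ± 0.10 (SE), adjusted p = 0.0204.

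After withdrawal 15 cytosolic members of Caco2 rose and 1, RPS27L, fell relative to resistant cells, where 24.7% of all genes were called (12.1% higher, 12.5% lower); the median change was 0.21. The withdrawal arrays were all above the resistant ones in 22 members and all below in 1 (38.9% of all genes separated). The count called was 8 without resistant replicate 1, 9 without resistant replicate 2, 26 without resistant replicate 3 and 8 with the line fitted alone. RPL36A rose 3.12-fold (log2 1.64 ± 0.15 (SE), adjusted p = 1.77e-08), RPS23 by 0.61 and RPL6 by 0.60 (adjusted p = 2.23e-05 and 0.00112), while RPS27L fell by 0.75 (adjusted p = 0.00378). The others that rose were RPS14, RPL9, RPS6, RPL26, RPL37, RPL35A, RPL18, RPL7, RPL34, RPS12, RPS7 and RPL22L1. Withdrawal and parental cells differed in none of the 52 by limma (5.28% of all genes were called, 2.73% higher and 2.54% lower); at an unadjusted p under 0.05, 1 was lower and none higher, and the median change was -0.04.

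Few cytosolic members changed in LIM1215. In parental cells of this line the cytosolic median was 15.83, on arrays whose highest gene mean was 17.09. Whether a place near the top of the range limits the changes measured was not tested. Between parental and resistant cells 1 of 52 was called, against 10.8% of all genes (5.42% higher, 5.39% lower), with a median change of 0.04 that turned to -0.0047 when each array was centred on its median. That member was RPL22L1, the paralog of RPL22, a large-subunit protein that also binds other RNAs. It measured 14.24, 14.32 and 14.41 on the parental, 13.75, 13.79 and 13.88 on the resistant and 14.41, 14.49 and 14.61 on the withdrawal arrays. The resistant arrays lay below all others (change -0.52 ± 0.11 (SE), adjusted p = 0.00307). It was also the only cytosolic member called from resistant to withdrawal cells (0.70 ± 0.11 (SE), adjusted p = 5.92e-05), where 27.9% of all genes were called (13.6% higher, 14.4% lower). The median there was 0.04, and -0.01 after quantile normalization. From parental to withdrawal cells RPL7L1 fell by 0.47 and RPS26 by 0.43 (adjusted p = 0.0151 and 0.0198) and none rose, while 21.1% of all genes were called (9.89% higher, 11.2% lower). Neither call held without parental replicate 1, without parental replicate 2 or with the line fitted alone, and 1 held without withdrawal replicate 2 or without withdrawal replicate 3. Without parental replicate 3, the array that stood apart, 5 members were called, 2 higher and 3 lower, and from parental to resistant cells 2, both lower; quantile normalization called 4, 2 in each direction.

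**Figure D1:**
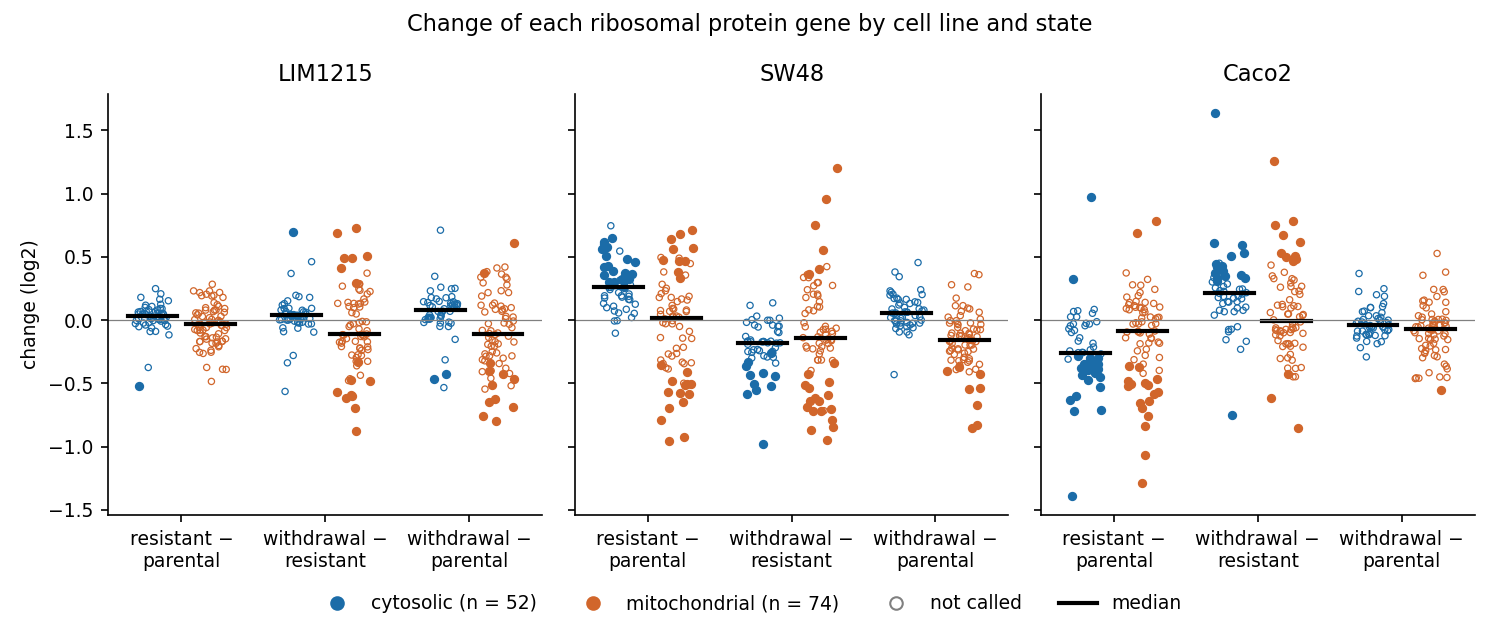
Change on the log2 scale of each of the 52 cytosolic and 74 mitochondrial members for the 3 comparisons of each line; filled points passed limma at an adjusted p under 0.05 and bars are medians. The cytosolic points of SW48 sit above 0 from parental to resistant cells (median 0.27) and those of Caco2 below it (median -0.26), while mitochondrial points spread to both sides.

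The mean over the members of a set on each array, taken relative to the parental mean of the line, shows the spread behind these counts. In SW48 the cytosolic mean was 0.27 to 0.31 on the 3 resistant arrays, -0.10 to 0.05 on the parental and -0.01 to 0.14 on the withdrawal arrays, so the resistant arrays did not overlap with the others. In Caco2 it was -0.34, -0.32 and -0.07 on the resistant arrays, -0.03 to 0.02 on the parental and -0.03 to -0.02 on the withdrawal arrays; resistant replicate 3 lay much nearer the parental arrays than its replicates did. In LIM1215 the cytosolic mean stayed between -0.02 and 0.09 on all 9 arrays. The mitochondrial mean stood apart from the cytosolic one on the resistant SW48 arrays. On the resistant arrays of LIM1215 the 2 ranges overlapped. In Caco2 both means fell, the mitochondrial one to -0.18, -0.20 and -0.02 on resistant replicates 1, 2 and 3. The mitochondrial mean was -0.11 to 0.03 on the resistant and -0.25 to -0.10 on the withdrawal arrays of SW48. It was -0.20 to -0.02 and -0.11 to -0.06 on those of Caco2, and -0.11 to 0.01 and -0.13 to -0.09 on those of LIM1215. LIM1215 parental replicate 3 had a mitochondrial mean of -0.28, against 0.13 and 0.14 on its replicates, and a cytosolic mean of 0.01. Over all genes the mean of every array stayed between -0.02 and 0.02.

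**Figure D2:**
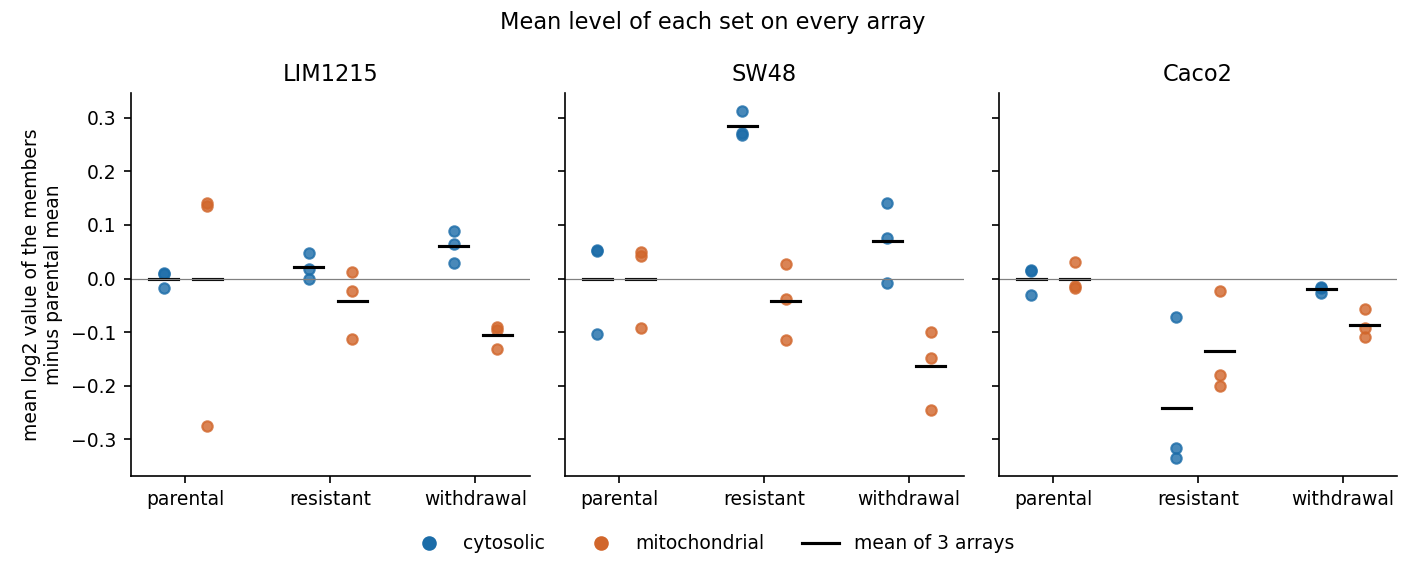
Mean log2 value of the members of each set on each of the 27 arrays, minus the mean of the parental arrays of that line; bars are means of 3 arrays. The cytosolic points of the 3 resistant SW48 arrays (0.27 to 0.31) stand above the rest, 2 of the 3 resistant Caco2 arrays stand below (-0.34 and -0.32), and 1 parental LIM1215 array has a low mitochondrial mean (-0.28).

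The difference between lines was tested in the same fit as the difference of their changes from parental to resistant cells. Between SW48 and Caco2, which share no array, 33 of 52 cytosolic members differed, all 33 higher in SW48, against 25.9% of all genes (12.9% higher in SW48, 13% lower). The median difference was 0.51 and 49 of 52 lay above 0. Between LIM1215 and Caco2 16 differed, 14 higher in LIM1215, against 21.3% of all genes (10.4% higher, 10.8% lower); the count was 26 without Caco2 resistant replicate 3 and 9 without Caco2 resistant replicate 2. Between LIM1215 and SW48 7 differed, all 7 lower in LIM1215, and 3 after quantile normalization. The 7 are 13.5% of the set, below the 18.3% of all genes (9.6% higher, 8.67% lower). No member of either set was called in the same direction in all 3 lines.

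In all, 8 cytosolic members rose in SW48 and fell in Caco2: RPL9, RPL18, RPL24, RPL34, RPL36A, RPS12, RPS14 and RPS25. They make up 38.1% of the 21 that rose in SW48 and 34.8% of the 23 that fell in Caco2. Of all 52 cytosolic members 40.4% rose in SW48 and 44.2% fell in Caco2, so the overlap was no larger than these shares give. The same overlap over all genes was not counted. The 8 were picked by their opposite calls on the same arrays, so a test of the difference adds no separate support for them. RPL36A differed most between the lines (1.87 ± 0.22 (SE), adjusted p = 7.12e-07). In SW48 it measured 13.10, 13.15 and 12.64 on the parental, 13.42, 13.57 and 13.34 on the resistant and 13.41, 13.05 and 13.03 on the withdrawal arrays, with the resistant arrays above the parental ones (0.48 ± 0.15 (SE), adjusted p = 0.0262) but overlapping those of the withdrawal group, in contrast to the low resistant values in Caco2. RPS12, at the beak of the small subunit, measured 16.34, 16.33 and 16.14 on the parental, 16.54, 16.69 and 16.66 on the resistant and 16.46, 16.31 and 16.35 on the withdrawal arrays in SW48. In Caco2 it measured 16.10, 16.17 and 16.10 on the parental, 15.58, 15.57 and 15.87 on the resistant and 16.02, 16.05 and 15.96 on the withdrawal arrays. Resistant arrays were the highest in SW48 and the lowest in Caco2 (difference of the changes 0.81 ± 0.15 (SE), adjusted p = 0.000214). RPL36AL and RPS27L rose in both lines (9.52% of the 21 and 100% of the 2 that rose in Caco2), with differences between the lines of 0.32 ± 0.15 (SE), adjusted p = 0.129, and -0.36 ± 0.26 (SE), adjusted p = 0.375. RPL9, RPS14, RPL18, RPL34, RPL24 and RPS25 differed by 0.64 to 0.79. After quantile normalization RPL18, RPL34, RPS12, RPS14 and RPS25 no longer passed in SW48, with changes still above 0. Counted over all members whatever the test, 42 of 52 cytosolic members (80.8%) had a change above 0 in SW48 and below 0 in Caco2. So had 22 of 74 mitochondrial members (29.7%) and 24.5% of all genes. With 49 cytosolic members above 0 in SW48 and 44 below 0 in Caco2, a count near 42 follows from the 2 lines taken apart. It is no further sign that the same genes moved oppositely.

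**Figure D3:**
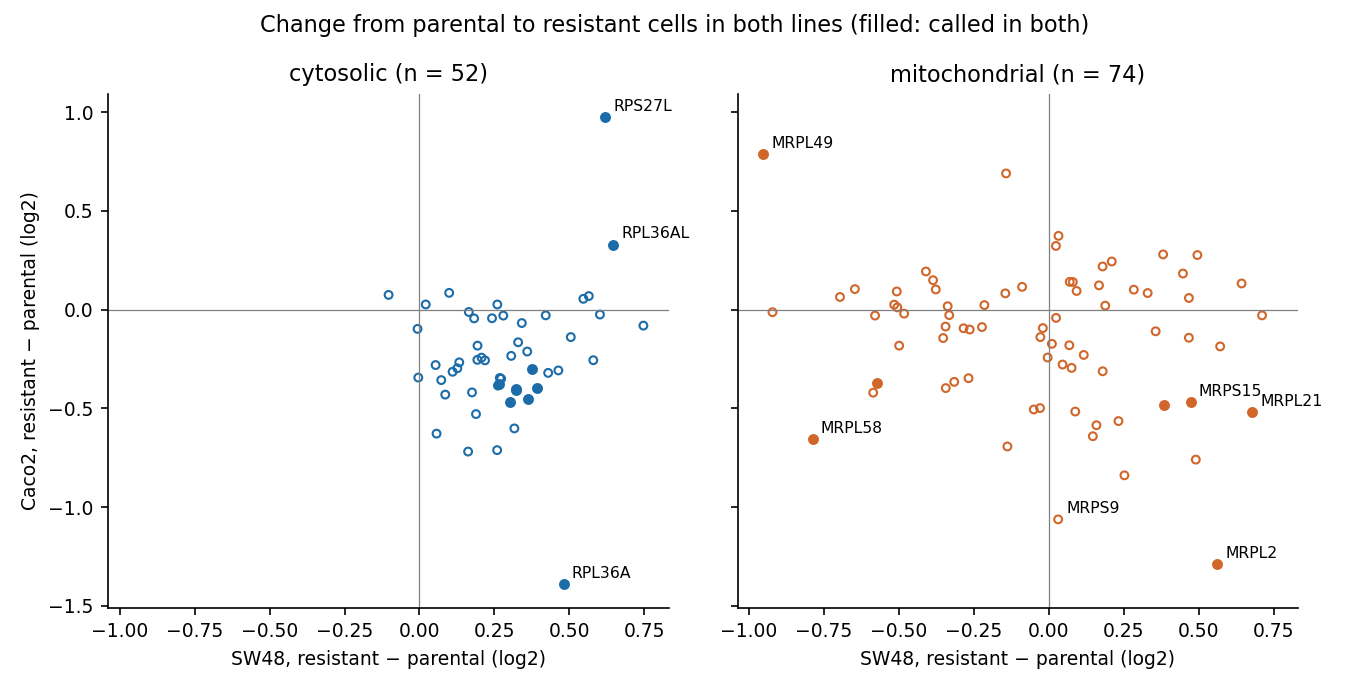
Change from parental to resistant cells in SW48 (horizontal) against Caco2 (vertical), log2, for the 52 cytosolic and 74 mitochondrial members; filled points were called in both lines. Most cytosolic points (42 of 52) lie at the lower right, with RPS27L and RPL36AL in the upper right, and the mitochondrial points spread to all sides.

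The paralog pairs were compared within each array. In Caco2 RPL36A fell while its paralog RPL36AL rose: the log2 value of RPL36AL minus that of RPL36A was -0.40, -0.78 and -0.46 on the parental arrays and 1.15, 1.32 and 1.05 on the resistant arrays. The difference thus shifted by 1.72 in Caco2, against 0.17 in SW48, where both rose, and -0.09 in LIM1215, where neither was called. RPL36AL measured 12.72, 12.71 and 12.76 on the parental, 13.14, 12.85 and 13.17 on the resistant and 12.90, 12.76 and 12.81 on the withdrawal arrays in Caco2, a smaller move than that of RPL36A. The difference RPS27L minus RPS27 shifted by 1.00 in Caco2, where RPS27 itself did not pass (-0.02 ± 0.10 (SE), adjusted p = 0.904), and by 0.02 in SW48, where both rose. RPL22L1 minus RPL22 shifted by -0.64 in LIM1215 and by -0.56 in Caco2, where RPL22L1 measured 10.84, 10.77 and 10.94 on the parental, 10.36, 10.22 and 10.38 on the resistant and 10.54, 10.68 and 10.68 on the withdrawal arrays and fell (change -0.53 ± 0.11 (SE), adjusted p = 0.000946), and by 0.17 in SW48. RPL22 was not called in any line, with changes of 0.13, 0.02 and 0.03 in LIM1215, SW48 and Caco2. RPL26L1 minus RPL26 shifted by 0.66 in Caco2, where RPL26 fell, and RPL7L1 minus RPL7 by -0.54 in LIM1215 and 0.50 in Caco2. RPL26L1 minus RPL26 shifted by 0.03 in LIM1215. Over the 8 pairs and 3 lines, an exact two-sided permutation test of each shift cannot go below p = 0.1 with 3 arrays against 3, so that no shift could pass. The shifts of RPL36A/RPL36AL and RPS27/RPS27L in Caco2 and of RPL22/RPL22L1 in LIM1215 and Caco2 were among the 10 with that p (0.24 after Benjamini-Hochberg over the 24 tests). RPL3, RPL10 and RPL39 were not analysed here, so their paralogs had no partner. MRPS18A, MRPS18B and MRPS18C, mitochondrial paralogs of 1 bacterial protein, shifted against each other by 0.45 or less in size in every line.

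**Figure D4:**
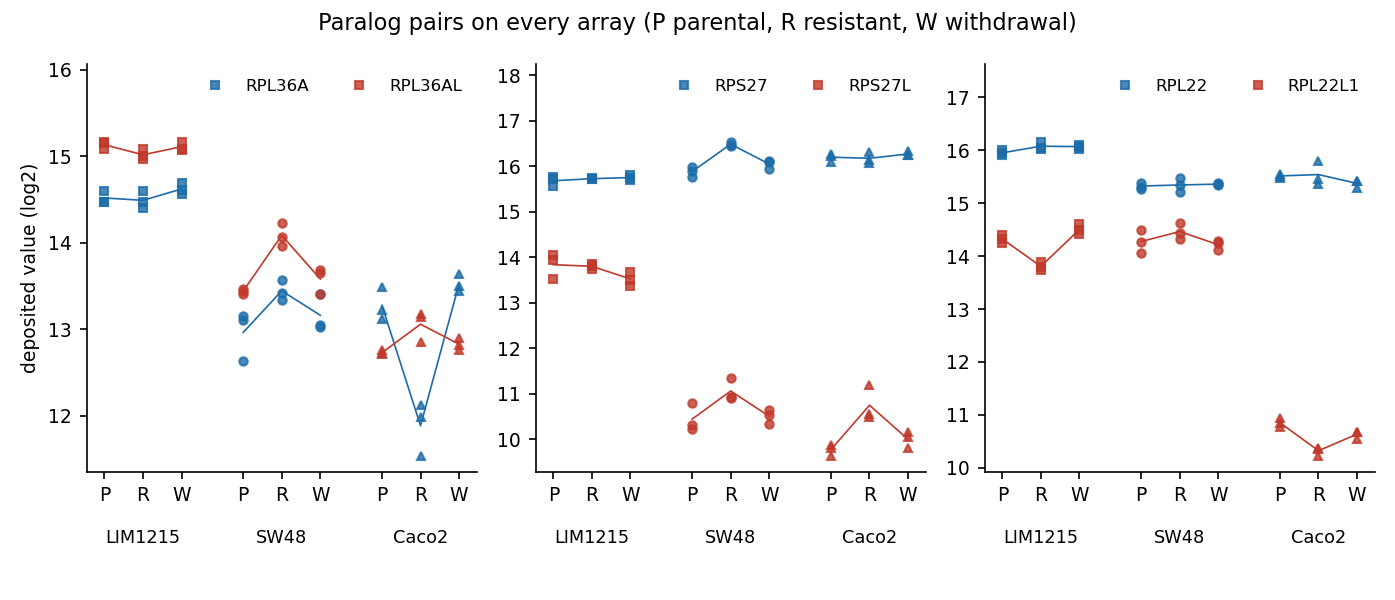
Deposited log2 values of RPL36A and RPL36AL, RPS27 and RPS27L, RPL22 and RPL22L1 on all 27 arrays (P parental, R resistant, W withdrawal; lines join the means of 3 arrays). In Caco2 RPL36A drops by 1.39 in resistant cells while RPL36AL rises by 0.33 and RPS27L by 0.98; RPL22L1 drops in LIM1215 and Caco2. Heights of different genes are not comparable.

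Mitochondrial ribosomal protein genes changed in both directions in SW48. From parental to resistant cells 10 of 74 rose and 14 fell, 32.4% of the set where 22.7% of all genes were called, with a median of 0.02 that turned to -0.06 without parental replicate 3 or without resistant replicate 1. The balance of the calls depended on the scaling, with 11 higher and 9 lower after centring each array on its median and 10 and 10 after quantile normalization, and the total was 14 without resistant replicate 1, 14 without resistant replicate 3, 15 without parental replicate 1 and 14 with the line fitted alone. In the large subunit 8 rose and 7 fell, and in the small subunit 2 rose and 7 fell.

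MRPL49 and MRPL50, proteins of the large subunit without a bacterial counterpart, fell most in SW48. MRPL49 measured 10.46, 10.32 and 10.15 on the parental, 9.42, 9.42 and 9.24 on the resistant and 9.97, 10.25 and 10.13 on the withdrawal arrays. The resistant arrays lay below all others, 1.93-fold lower than in parental cells (log2 -0.95 ± 0.16 (SE), adjusted p = 0.000127). MRPL50 measured 9.81, 9.67 and 9.59 on the parental, 9.05, 8.53 and 8.72 on the resistant and 9.96, 9.79 and 10.16 on the withdrawal arrays, with the same separation (-0.92 ± 0.18 (SE), adjusted p = 0.000359). MRPL58, also known as ICT1, a peptidyl-tRNA hydrolase that became part of the large subunit, measured 8.60, 8.53 and 8.23 on the parental, 7.24, 7.99 and 7.77 on the resistant and 8.70, 8.58 and 8.60 on the withdrawal arrays, again lowest on the resistant arrays (-0.79 ± 0.19 (SE), adjusted p = 0.00314). Among those that rose, MRPL24 measured 9.27, 9.46 and 9.25 on the parental, 10.13, 9.99 and 9.99 on the resistant and 9.14, 9.004 and 9.12 on the withdrawal arrays. The resistant arrays lay above the rest (0.71 ± 0.18 (SE), adjusted p = 0.00565). MRPL21 and MRPL13 rose by 0.68 and 0.64 (adjusted p = 0.00541 and 0.00691). MRPL2, whose bacterial counterpart lies at the peptidyl transferase centre, measured 10.84, 11.17 and 11.33 on the parental, 12.04, 11.42 and 11.57 on the resistant and 11.26, 10.73 and 10.41 on the withdrawal arrays and rose by 0.56 ± 0.20 (SE), adjusted p = 0.0417. The other members that rose were MRPS22, MRPS15, MRPL16, MRPL34, MRPL9 and MRPL37, and the others that fell were MRPS12, MRPL17, MRPL12, MRPS30, MRPS17, MRPS34, MRPL32, MRPS10, MRPS2, MRPS21 and MRPL10.

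From resistant to withdrawal SW48 cells 6 mitochondrial members rose and 17 fell (22.2% of all genes called), with a median of -0.14; quantile normalization gave 3 and 17. MRPL50 rose by 1.20 ± 0.18 (SE), adjusted p = 1.61e-05, MRPL58 by 0.96 and MRPL49 by 0.76 (adjusted p = 0.000488 and 0.00141), with MRPL12, MRPS10 and MRPS2 behind them. MRPL24 fell by 0.95, MRPL2 by 0.87 and MRPL22, at the peptide tunnel, by 0.85 (adjusted p = 0.000398, 0.00185 and 0.00197). Withdrawal cells differed from parental cells in 8 mitochondrial members, all lower, against 4.08% of all genes (1.78% higher, 2.3% lower); 6 of the 8 were of the small subunit. MRPS12, of the decoding centre, measured 8.67, 8.60 and 8.43 on the parental, 8.31, 7.60 and 7.70 on the resistant and 7.56, 8.08 and 7.502 on the withdrawal arrays and fell by 0.85 between parental and withdrawal cells (adjusted p = 0.0281). MRPL33 measured 7.65, 7.86 and 7.80 on the parental, 7.69, 7.76 and 7.42 on the resistant and 6.88, 6.92 and 7.02 on the withdrawal arrays. Its fall was seen only on the withdrawal arrays (-0.83 ± 0.18 (SE), adjusted p = 0.00784), where it lay close to the mean background of 6.88, which limits the size measured. MRPS34 fell by 0.67 (adjusted p = 0.0299). MRPL42, MRPS11, MRPS23, MRPS16 and MRPS30 made up the rest. The number of these calls was 1 to 5 when any single array of the 2 groups was left out, 1 without parental replicate 2, 3 after centring on the median and 1 with the line fitted alone.

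In Caco2 17 mitochondrial members fell and 2 rose from parental to resistant cells, 13 and 2 in the large and 4 and 0 in the small subunit. These are 25.7% of the set, below the 27.4% of all genes called. By direction, 23% of the set and 14.5% of all genes fell, and 2.7% and 12.9% rose. The median was -0.09, and the count was 12 without resistant replicate 1 and 12 without resistant replicate 2. MRPL2 measured 12.17, 11.86 and 11.53 on the parental, 10.37, 10.52 and 10.79 on the resistant and 11.71, 11.88 and 11.88 on the withdrawal arrays. Its resistant arrays lay below all others, 2.45-fold lower than in parental cells (log2 -1.29 ± 0.20 (SE), adjusted p = 1.79e-05). MRPS9, a small-subunit protein with a bacterial counterpart, measured 11.20, 10.96 and 11.34 on the parental, 10.30, 9.76 and 10.25 on the resistant and 10.82, 10.82 and 10.70 on the withdrawal arrays and fell 2.09-fold (-1.06 ± 0.18 (SE), adjusted p = 6.65e-05). MRPL1, of the mobile stalk, MRPL58 and MRPL28 fell to the background level in resistant cells and are given as bounds: MRPL1 was at least 1.49-fold lower than in parental cells (adjusted p = 0.000608), MRPL58 at least 1.38-fold (adjusted p = 0.0105) and MRPL28 at least 1.18-fold (adjusted p = 0.018), where the background of each array or the value itself, whichever was higher, stood in for the resistant level. MRPL49 measured 10.14, 10.17 and 9.87 on the parental, 10.65, 10.83 and 11.07 on the resistant and 9.96, 10.11 and 9.92 on the withdrawal arrays, highest on the resistant arrays (0.79 ± 0.16 (SE), adjusted p = 0.00072), and MRPL33 rose by 0.69 ± 0.18 (SE), adjusted p = 0.00453. The other members that fell were MRPL22, MRPL48, MRPS24, MRPL36, MRPL11, MRPL21, MRPL14, MRPL47, MRPL9, MRPS15, MRPS17 and MRPL42, by 0.37 to 0.76.

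From resistant to withdrawal Caco2 cells 10 mitochondrial members rose and 3 fell. These are 17.6% of the set, below the 24.7% of all genes called (12.1% higher, 12.5% lower), and 8 were called without resistant replicate 2. The median was -0.01 and turned to 0.01 after quantile normalization or without resistant replicate 2, and to 0.03 and 0.05 without resistant replicate 3 and without withdrawal replicate 3. MRPL2 rose by 1.26 ± 0.20 (SE), adjusted p = 2.77e-05, MRPS9 by 0.68 (adjusted p = 0.00644), MRPL1 at least 1.44-fold and MRPL58 at least 1.48-fold (adjusted p = 0.00131 and 0.00414). MRPL49 fell by 0.85, MRPL16 by 0.61 and MRPS33 by 0.43 (adjusted p = 0.000371, 0.00526 and 0.0481). MRPL16 was the 1 mitochondrial member that differed between withdrawal and parental cells (5.28% of all genes called, 2.54% lower). It measured 10.57, 10.46 and 10.68 on the parental, 10.60, 10.43 and 10.86 on the resistant and 10.10, 9.93 and 10.02 on the withdrawal arrays. Its fall of 0.56 (adjusted p = 0.0414) missed the threshold after either rescaling, with the line fitted alone, and without any 1 of 5 of the 6 arrays compared.

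In LIM1215 no mitochondrial member was called from parental to resistant cells by limma (10.8% of all genes were), while at an unadjusted p under 0.05, 3 were lower and none higher; without parental replicate 3, 2 were called, both lower. The median was -0.03, and 0.03 without parental replicate 1 or without parental replicate 2. From resistant to withdrawal cells 7 rose and 9 fell, 21.6% of the set and below the 27.9% of all genes called. The counts were 7 and 5 after centring on the median and 6 and 11 after quantile normalization. The total was 9 without any 1 of the 3 resistant arrays, 7 without withdrawal replicate 1 and 8 with the line fitted alone. MRPL24 measured 11.52, 11.50 and 11.60 on the parental, 10.82, 11.29 and 11.35 on the resistant and 11.90, 11.82 and 11.93 on the withdrawal arrays, with withdrawal arrays above the rest (0.73 ± 0.18 (SE), adjusted p = 0.00395). MRPS10 measured 10.97, 10.99 and 11.24 on the parental, 10.73, 11.15 and 11.08 on the resistant and 11.65, 11.63 and 11.74 on the withdrawal arrays, likewise (0.69 ± 0.13 (SE), adjusted p = 0.000323). MRPL14 rose by 0.51 (adjusted p = 0.0118). MRPL27 measured 12.17, 12.11 and 10.60 on the parental, 11.70, 11.84 and 11.58 on the resistant and 10.65, 11.003 and 10.83 on the withdrawal arrays. Parental replicate 3 was as low as the withdrawal arrays, and the fall from resistant cells was -0.88 ± 0.27 (SE), adjusted p = 0.0188. MRPL11, at the base of the factor-binding stalk, and MRPL51 fell by 0.70 and 0.61 (adjusted p = 0.0119 and 0.03). From parental to withdrawal cells 2 rose and 10 fell, 16.2% of the set and below the 21.1% of all genes called. The counts were 5 and 4 after centring and 6 and 12 after quantile normalization. The total was 23, 2 higher and 21 lower, without parental replicate 3, 3 without parental replicate 1, 4 without parental replicate 2 and 4 to 6 without any 1 withdrawal array. MRPS10 and MRPS11 rose by 0.61 and 0.37 (adjusted p = 0.00189 and 0.0302). MRPS12, MRPL18 and MRPL17 fell by 0.76, 0.69 and 0.63 (adjusted p = 0.0159, 0.0172 and 0.00519). For MRPS12, values of 11.35, 11.33 and 10.28 on the parental and 10.26, 10.14 and 10.27 on withdrawal arrays were measured, so that parental replicate 3 stood at the edge of the withdrawal range.

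**Figure D5:**
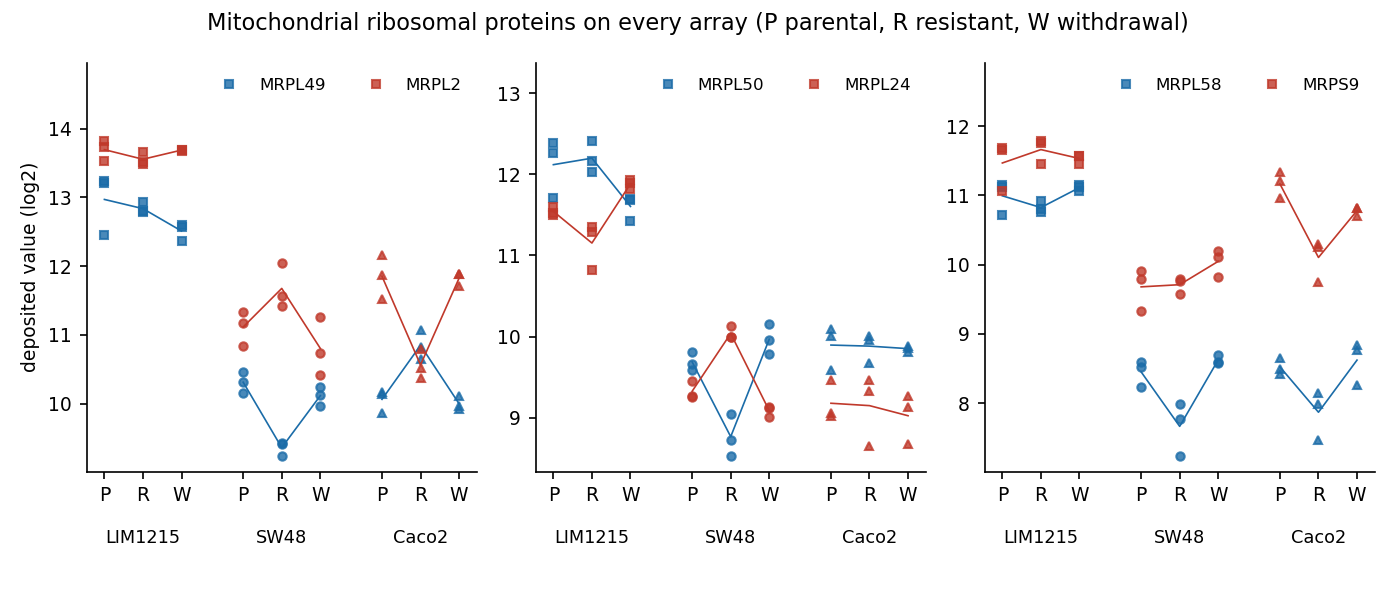
Deposited log2 values of MRPL49 and MRPL2, MRPL50 and MRPL24, MRPL58 and MRPS9 on all 27 arrays (P parental, R resistant, W withdrawal; lines join the means of 3 arrays). From parental to resistant cells MRPL49 falls by 0.95 in SW48 and rises by 0.79 in Caco2, and MRPL2 does the reverse (0.56 and -1.29). Heights of different genes are not comparable.

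Between SW48 and Caco2 the change from parental to resistant cells differed in 22 mitochondrial members, 14 higher and 8 lower in SW48 (25.9% of all genes), with 15 and 5 after centring on the median and 14 and 5 after quantile normalization. MRPL2, MRPL9, MRPL21 and MRPS15 rose in SW48 and fell in Caco2, and MRPL49 fell in SW48 and rose in Caco2. MRPL2 differed by 1.85 ± 0.28 (SE), adjusted p = 2.14e-05, and MRPL49 by -1.74 ± 0.23 (SE), adjusted p = 4.99e-06. These members were picked by their opposite calls on the same arrays, so this test adds no separate support for them. The 4 that rose in SW48 and fell in Caco2 make up 40% of the 10 that rose in SW48 and 23.5% of the 17 that fell in Caco2. Of all 74 mitochondrial members 13.5% rose in SW48 and 23% fell in Caco2. MRPL49 is 7.14% of the 14 that fell in SW48 and 50% of the 2 that rose in Caco2. MRPL58 and MRPS17 fell in both lines (14.3% of the 14 and 11.8% of the 17). These shares rest on few members, and the same overlaps over all genes were not counted. LIM1215 differed from SW48 in 8 mitochondrial members, 10.8% of the set (4 higher, 4 lower, against 18.3% of all genes; 3 and 5 after centring, 4 and 2 after quantile normalization; 4 or 5 without SW48 parental replicate 3, SW48 resistant replicate 1 or any 1 LIM1215 resistant array) and from Caco2 in 9, 12.2% of the set (7 higher, 2 lower, against 21.3% of all genes; 4 without Caco2 resistant replicate 2).

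The 2 sets were set side by side as the median change of the cytosolic minus that of the mitochondrial members, which has no test. Between parental and resistant cells it was 0.068 in LIM1215, 0.249 in SW48 (0.165 after quantile normalization) and -0.175 in Caco2, so the cytosolic set stood above the mitochondrial one in SW48 and below it in Caco2. The LIM1215 value was 0.000325 without parental replicate 1, 0.0032 without parental replicate 2 and 0.235 without parental replicate 3. From resistant to withdrawal cells it was 0.148, -0.036 and 0.220 in LIM1215, SW48 and Caco2, and from parental to withdrawal cells 0.191, 0.220 and 0.033. The value of -0.036 was 0.0041 after quantile normalization and ranged from -0.118 (without resistant replicate 1) to -0.0103 (without resistant replicate 3). It was -0.0783 and -0.0578 without withdrawal replicates 2 and 3. The value of 0.148 was 0.0805 after quantile normalization, 0.0782 without resistant replicate 3 and 0.0881 without withdrawal replicate 3. The value of 0.191 was 0.121, 0.107 and 0.343 without parental replicates 1, 2 and 3. The value of 0.033 was 0.0138 after quantile normalization, 0.0768 without parental replicate 2, 0.0613 without withdrawal replicate 2 and 0.00709 without withdrawal replicate 3. In SW48 the gap after withdrawal came with a cytosolic median of 0.06 and a mitochondrial one of -0.16.

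Other genes of ribosome production and of mitochondria were taken from lists chosen by function. Of 75 measured ribosome biogenesis genes, which build ribosomes in the nucleolus, 0 rose and 7 fell from parental to resistant cells in LIM1215, 4 and 23 in SW48 and 3 and 34 in Caco2, with medians of -0.19, -0.23 and -0.31. These calls are 9.33%, 36% and 49.3% of the list, where 10.8%, 22.7% and 27.4% of all genes were called in LIM1215, SW48 and Caco2. In SW48 they thus had a median below 0 where the cytosolic ribosomal proteins had one above it. SDAD1, needed for export of the large subunit, fell by 1.70 in SW48 (adjusted p = 1.43e-09), and GNL2 and UTP11, which act in assembly of the large and small subunit, fell by 1.46 and 1.24 in Caco2 (adjusted p = 1.27e-05 and 2.08e-07). Of 29 cytosolic translation factors, 2 rose and 17 fell in Caco2 (median -0.38), among them the initiation factor subunits EIF3I and EIF3M by 0.91 and 0.90 (adjusted p = 2.77e-07 and 8.16e-07). In SW48 2 rose and 4 fell (median -0.04) and in LIM1215 1 fell; the shares called were 65.5%, 20.7% and 3.45% in Caco2, SW48 and LIM1215. Of 31 genes of mitochondrial translation and mitoribosome assembly, 3 rose and 9 fell in SW48 and 3 and 13 in Caco2 (38.7% and 51.6% of the list, medians -0.06 and -0.29), and 0 were called in LIM1215, where 1 was higher and 2 lower at an unadjusted p under 0.05. TFB2M, a mitochondrial transcription factor, fell by 1.61 in SW48 and by 1.13 in Caco2 (adjusted p = 3.36e-08 and 3.61e-06), and TFAM, which packages mitochondrial DNA, fell by 1.38 in SW48 (adjusted p = 3.07e-07). Of 62 nuclear-encoded respiratory chain subunits, 28 rose and 1 fell in SW48 (median 0.38), 4 rose in LIM1215 (median 0.22), and 7 rose and 10 fell in Caco2 (median -0.05). The shares called were 46.8% in SW48, 6.45% in LIM1215 and 27.4% in Caco2, so that the share was above that of all genes in SW48, below it in LIM1215 and equal to it in Caco2. SDHA and NDUFB6 rose by 1.33 and 1.44 in SW48 (adjusted p = 1.81e-07 and 1.27e-06), and NDUFA1 by 2.32 in Caco2 (adjusted p = 6.16e-11). In Caco2 NDUFS4 and NDUFS6 fell by 0.87 and 0.84 (adjusted p = 0.000276 and 1.22e-06). NDUFA9 fell by 0.49 in SW48 and rose by 0.42 in LIM1215 (adjusted p = 0.00518 and 0.0298). From resistant to withdrawal cells 1 respiratory chain gene rose and 43 fell in SW48 (median -0.54), 8 rose and 7 fell in Caco2, and 25 fell in LIM1215, which is 71%, 24.2% and 40.3% of the list, where 22.2%, 24.7% and 27.9% of all genes were called. Of the cytosolic ribosomal components under other symbols, FAU, the precursor of a small-subunit protein, rose by 0.40 in SW48 and fell by 0.54 in Caco2 (adjusted p = 0.0405 and 0.0048), and of the mitochondrial ones DAP3, a GTP-binding protein of the small subunit, rose by 0.43 in SW48 (adjusted p = 0.0149).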

How the data were processed

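Total RNA of 27 samples was labelled with biotin and hybridised to 1-colour Affymetrix expression arrays, per the labels' protocols. The deposited values, 1 per probe set and array, were read as log2; the base was inferred from their range. Which software, background correction and normalization were used is not given in the sources used here. Within a line the quartiles of the arrays were alike, and between lines they differed.

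Of 24351 probe sets, 2903 were controls, 612 of them negative controls; 17709 others had 1 gene symbol in the platform annotation, and 3739 had none and were left out. Where a gene had several probe sets (20 genes, no member), the brightest over all arrays was used, which gave 17687 genes. Replicate numbers were taken from the labels; nothing there says that replicates came from separate cultures, so p-values measure the spread between these samples, which may be technical. The number of arrays (3 per group) limits the precision.

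A linear model with 9 group means was fitted to all arrays with lmFit and eBayes (limma 3.58.1, R 4.3.3), and 9 comparisons within lines and 3 between lines were tested, each adjusted by Benjamini-Hochberg over all genes and called at an adjusted p under 0.05. Errors are standard errors of the fit. Changes are differences of group means. The fit was tested on simulated data. Members near background in 1 group are given as bounds. Named with values were, per comparison and set, up to 3 called members with the largest change in each direction and no overlap between the arrays of the groups compared, members called in opposite directions in different lines, and the paralog pairs; other genes came from the lists. RPS12 was taken from the members called in opposite directions after its values were seen, and so were the called members listed by name only. The members and lists were chosen with earlier results of these data known. Alternatives were centring each array on its median, quantile normalization, leaving out genes near background in every group, fitting each line alone, the replicate number as a block, and leaving out each array in turn. Same-numbered arrays of a line did not deviate together (correlations of their deviations from -0.0407 to 0.0749), so the number was not used as a pairing. Values of the 2 Y-linked members are not reported here. Protein sequences were not used here. Promoters came from RefSeq (GRCh38.p14).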

Additional observations from a re-analysis of the deposited data

Results flagged for a closer look

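Each result here is a change from parental to resistant cells that differed between lines in limma's test of the difference. Of the 52 cytosolic members, the number that differed was 33 between SW48 and Caco2, 16 between LIM1215 and Caco2 and 7 between LIM1215 and SW48. Of the 74 mitochondrial members, the numbers were 22, 9 and 8 (29.7%, 12.2% and 10.8%). Over all genes 25.9%, 21.3% and 18.3% differed, so the mitochondrial share was below that of all genes in both comparisons with LIM1215. The cytosolic shares were 63.5%, 30.8% and 13.5%, the last of them also below the share of all genes. The 13 members called in opposite directions in SW48 and Caco2 are given with their differences, SW48 minus Caco2, on the log2 scale. Because those calls came from the same arrays, the choice itself favours a large difference. Among cytosolic members the difference was 1.87 for RPL36A, 0.81 for RPS12, 0.79 for RPL9, 0.77 for RPS14, 0.73 for RPL18, 0.72 for RPL34, 0.68 for RPL24 and 0.64 for RPS25. Among mitochondrial members it was 1.85 for MRPL2, 1.20 for MRPL21, 0.94 for MRPS15, 0.87 for MRPL9 and -1.74 for MRPL49.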

How the results depend on the processing

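No called change of a named member turned its direction under the alternatives run. The medians of the sets that lay near 0 did: the cytosolic median of LIM1215 (parental to resistant) was -0.0047 after centring and that from resistant to withdrawal cells -0.01 after quantile normalization, and the mitochondrial medians of LIM1215 and SW48 (parental to resistant) and Caco2 (resistant to withdrawal) turned without single arrays. The balance of mitochondrial calls turned after centring, from 10 higher and 14 lower to 11 and 9 in SW48 (parental to resistant), from 2 and 10 to 5 and 4 (parental to withdrawal) and from 7 and 9 to 7 and 5 (resistant to withdrawal) in LIM1215. After centring each array on its median, 3 mitochondrial members were called between parental and withdrawal SW48 cells and 0 in Caco2. Quantile normalization called 12 cytosolic members from parental to resistant SW48 cells, 2 and 4 in LIM1215 from resistant to withdrawal and from parental to withdrawal cells, 3 between LIM1215 and SW48, and 0 mitochondrial members between parental and withdrawal Caco2 cells; the gap between the set medians became 0.080 in LIM1215 from resistant to withdrawal cells, and 0.165 and 0.195 in SW48 from parental to resistant and to withdrawal cells. Leaving out genes near background in every group called 2 cytosolic members from parental to resistant and 2 from resistant to withdrawal LIM1215 cells, 21 mitochondrial members from parental to withdrawal LIM1215 cells, and 1 cytosolic and 2 mitochondrial members from parental to withdrawal Caco2 cells. With each line fitted alone, cytosolic calls were 11 and 7 in SW48 and 14 and 8 in Caco2 (parental to resistant, resistant to withdrawal) and 0 in LIM1215 (parental to withdrawal); mitochondrial calls were 14 (parental to resistant) and 1 (parental to withdrawal) in SW48, 8 (resistant to withdrawal) and 4 (parental to withdrawal) in LIM1215 and 0 in Caco2 (parental to withdrawal). The replicate block moved 1 set count by over 1.5 times, to 5 mitochondrial members between parental and withdrawal SW48 cells, and 8 of 130 results on named members no longer passed under it. Of the other results on named members, 25 of 130 no longer passed with the line fitted alone, and 6 each after centring and after quantile normalization. Leaving out SW48 parental replicate 3 ended the call in 12 of 35 results on named members, the highest number for any array left out.

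Leaving out 1 array at a time, calls from parental to resistant cells, from resistant to withdrawal cells and from parental to withdrawal cells ranged, in that order, from 1 to 2, at 1, and from 0 to 5 for cytosolic members of LIM1215, from 7 to 19, 7 to 11, and at 0 in SW48, and from 15 to 32, 8 to 26, and at 0 in Caco2. For mitochondrial members they ranged from 0 to 2, 7 to 11 and 3 to 23 in LIM1215, from 14 to 21, 16 to 21 and 1 to 5 in SW48, and from 12 to 19, 8 to 16 and 0 to 1 in Caco2. The gap between the set medians ranged from 0.000325 to 0.235, 0.0782 to 0.151 and 0.107 to 0.343 in LIM1215, from 0.223 to 0.344, -0.118 to -0.0103 and 0.177 to 0.225 in SW48, and from -0.258 to -0.127, 0.151 to 0.285 and 0.00709 to 0.0768 in Caco2. Between lines, cytosolic and mitochondrial calls ranged from 6 to 9 and 4 to 12 (LIM1215 and SW48), 9 to 26 and 4 to 12 (LIM1215 and Caco2) and 26 to 37 and 15 to 22 (SW48 and Caco2). The causes were not tested. A signal near background limits RPL3L, RPL10L, RPL39L, MRPL54 and MRPS31, and in Caco2 also MRPL1, MRPL28 and MRPL58.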

Other observations

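FAU, the precursor of a ubiquitin-like protein fused to a small-subunit ribosomal protein, and MRPL49 start 49 bases apart on opposite strands of chromosome 11 (GRCh38; FAU from 65120630 to 65122134 on the minus strand, MRPL49 from 65122183 to 65127371 on the plus strand). This locus was picked from the nearest annotated genes of all members called in opposite directions in SW48 and Caco2. From parental to resistant cells FAU rose by 0.40 in SW48 and fell by 0.54 in Caco2 (limma, adjusted p = 0.0405 and 0.0048), as most cytosolic members did. MRPL49 fell by 0.95 in SW48 and rose by 0.79 in Caco2 (adjusted p = 0.000127 and 0.00072). In LIM1215 neither was called, and the change of FAU was -0.04 (adjusted p = 0.916). From resistant to withdrawal cells FAU fell by 0.55 in SW48 (adjusted p = 0.00522) and its change in Caco2 was 0.35 (adjusted p = 0.0692). SYVN1, a ubiquitin ligase gene that overlaps the end of MRPL49 on the minus strand, rose by 0.35 from parental to resistant and fell by 0.46 from resistant to withdrawal Caco2 cells (adjusted p = 0.0365 and 0.00653). In LIM1215 it rose by 0.39 from resistant to withdrawal cells (adjusted p = 0.0197), and in SW48 it was not called.

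The read-through gene RPL36A-HNRNPH2, which starts with RPL36A on chromosome X, has a probe set of its own. From parental to resistant Caco2 cells it fell by 1.24 and from resistant to withdrawal cells it rose by 1.60 (adjusted p = 5.67e-07 and 1.21e-08), beside -1.39 and 1.64 for RPL36A. In SW48 its change from parental to resistant cells was 0.39 (adjusted p = 0.0587). The 2 probe sets may share transcripts.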
